A study of Bos taurus with 17 samples.

Results

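The ribosomal protein genes were followed in bovine cumulus cells, the somatic cells that surround the oocyte in the ovarian follicle, at 3 stages of oocyte developmental competence. A probe was counted as a member when its gene name on the array began with RPL or RPS and a digit, was RPLP0 to RPLP2 or RPSA, or when its description held the words ribosomal protein L or ribosomal protein S. Descriptions with the words mitochondrial, kinase or pseudogene were left out, with capitals ignored. The rule found 92 of 21475 probes, under 90 of 20602 gene names on the array. They named 77 distinct proteins of the cytoplasmic ribosome, 45 of the large subunit and 32 of the small subunit, each by 1 probe. The other members were 5 second probes of such proteins, 6 paralogs, 2 genes that are not ribosomal proteins (RPS6KB1 and RPS19BP1) and 2 probes named RPS15A whose descriptions gave another transcript. No member probe was found for RPL13.

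NC1 arrays held cumulus cells of 6 prepubertal calves aged 3 to 6 months, from compact complexes around immature prophase I oocytes that are poorly competent for development. C1 arrays came from 6 adult cows by the same post mortem aspiration, also with compact cumulus and immature prophase I oocytes. C2 arrays came from 5 non-lactating Holstein cows aged 3 to 5 years, which had received progestagen implants, porcine gonadotropins and prostaglandin, and whose expanded complexes with metaphase II oocytes were taken by ovum pick up. Each array carried Cy3-labelled cRNA made from 0.35 µg of RNA. C1 differed from NC1 in the age of the donors, and C2 differed from C1 also in hormone treatment, follicle and way of collection, and these cannot be told apart within a comparison.

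Ribosomal proteins form, with ribosomal RNA, the small subunit that reads the messenger RNA and the large subunit that joins amino acids. Their messengers are among the most abundant of a dividing cell, and most carry a terminal oligopyrimidine (TOP) tract at the start, by which the mTOR pathway sets how strongly they are translated. The amount of messenger measured here therefore need not follow the amount of protein made. In the ovary, granulosa and cumulus cells stop dividing after the ovulatory gonadotropin surge while they lay down the expansion matrix.

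The probes are designed oligonucleotides, and the sequences of those on which the results turn are shown because 2 probes of one protein did not always give the same result. Capitals mark the letters AATAAA, the polyadenylation signal, where a probe held them on the printed strand.
RPL13A: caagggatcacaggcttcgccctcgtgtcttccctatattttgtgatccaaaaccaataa
RPL35: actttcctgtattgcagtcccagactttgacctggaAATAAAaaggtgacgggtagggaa
RPL15, first probe: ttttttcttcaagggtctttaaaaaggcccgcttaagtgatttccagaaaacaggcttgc
RPL15, second probe: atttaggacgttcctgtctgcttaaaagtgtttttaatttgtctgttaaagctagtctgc
RPL10, first probe: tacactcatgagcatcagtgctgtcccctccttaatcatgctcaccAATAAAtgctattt
RPL10, second probe: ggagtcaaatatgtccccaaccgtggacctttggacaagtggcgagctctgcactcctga
RPL22L1: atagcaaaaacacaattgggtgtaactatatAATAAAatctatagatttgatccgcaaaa
RPL19: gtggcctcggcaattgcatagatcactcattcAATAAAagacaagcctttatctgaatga

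Of the 90 members that entered the tests, 28 (31.1%) held AATAAA, against 15.0% of the 13865 probes tested. This is a match of letters on the strand as printed and is no measure of where a transcript ends. The member probes were distinct from each other: the longest run of bases shared by any pair was 11, between the RPS6KB1 probe and the second RPL15 probe. Between RPL22 and its paralog RPL22L1 the longest shared run was 9, and between the pair of RPL15 probes it was 6. GC content of the member probes ran from 26.7% to 70.0% with a median of 45.0%, and that of all tested probes had a median of 43.3%.

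Signals are given as log2 values above the median of the same array. Only probes detected in 80% or more of a stage's arrays, for every stage, were valid and tested. Of the members, 90 were valid and 2 were not. RPL3L, the paralog of RPL3 known from striated muscle, was well above background on 4 of 6 NC1, 6 of 6 C1 and 1 of 5 C2 arrays. The RPS15A probe described as FLJ16636 was above background on 0 of 6, 4 of 6 and 1 of 5 arrays. The 90 valid members were well above background on all 17 arrays. Their mean signals ran from -0.05 for RPL28 to 11.08 for RPS14, and 59 of them stood at 8 or more. A signal also depends on the probe's own sequence, so no order of transcript amounts between genes can be read from these values. No spot was saturated on any array.

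Over the 90 valid members the median signal per array was 9.05 to 9.78 in NC1 (median 9.24), 9.18 to 9.62 in C1 (median 9.49), and 9.11, 8.74, 9.10, 9.76 and 9.15 in C2 replicates 1 to 5. The 3 stages overlapped. The lowest and the highest C2 arrays were replicates 2 and 4, farther apart than any pair of C1 arrays. The members' share of the summed signal of all probes was 11.3% to 15.2% in NC1 (median 11.7%), 11.6% to 13.1% in C1 (median 12.5%), and 9.59%, 9.62%, 10.0%, 10.9% and 9.46% in C2. All 5 C2 arrays lay below all 12 other arrays in this share. The mean share was 12.3% ± 1.49 (SD, n = 6) in NC1, 12.4% ± 0.632 (SD, n = 6) in C1 and 9.92% ± 0.595 (SD, n = 5) in C2, 2.50 percentage points less than in C1. With background correction by normexp the C2 and NC1 shares overlapped: the highest C2 array had 10.8% and the lowest NC1 array 10.3%. The C2 arrays then stayed below all C1 arrays (lowest 11.5%). A share of the whole also moves when other probes rise. Fewer cells of a type and less RNA per cell cannot be told apart in such samples.

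**Figure D1:**
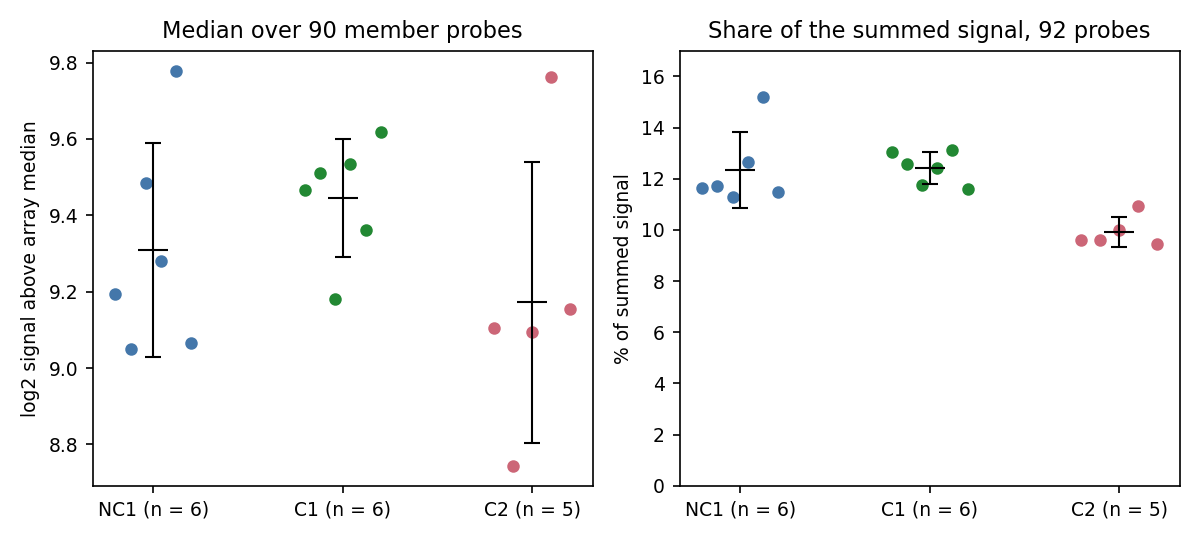
Left, the median log2 signal of the 90 valid ribosomal protein probes on each array (above the array's median). Right, the share of the summed signal in percent of all 92 probes; points are arrays, bars the mean and SD of each stage. The medians overlap between stages, and in the share the 5 C2 arrays (9.46% to 10.9%) lie below the other 12.

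Each of the 6 slides held 1 NC1 and 1 C1 array, and 5 of them 1 C2 array as well. On the same slide the C2 array had the lower share than the C1 array in 5 of 5 cases, by 0.830 to 3.59 percentage points, and the lower share than the NC1 array in 5 of 5, by 1.27 to 5.75 points. The median member difference was less uniform. It was negative for C2 against C1 on 4 slides (-0.25 to -0.55) and 0.53 on slide 4, which held C2 replicate 4. The arrays were scanned on 2 days. The median difference between C2 and C1 was -0.42 within scan day 1 and 0.08 within scan day 2, and that between C2 and NC1 was -0.32 and 0.13. The scan day 2 values rest on 2 C2 arrays, 1 of which was replicate 4.

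At median scaling few single ribosomal protein probes were called between stages, and other scalings, given below, called more. A probe was called when its limma p, adjusted by Benjamini-Hochberg over all 13865 valid probes, was under 0.01. Among the 3 stages (moderated F test) 7 of 90 members were called, where 28.6% of all valid probes were. Against C1, 6 members were lower in C2 (all valid probes, 12.8%) and 0 were higher (all valid probes, 15.3%). At an unadjusted p under 0.05, 22 of 90 members differed between C2 and C1 (all valid probes, 49%) and 13 between C2 and NC1 (all valid probes, 48.5%). Against NC1, 6 members were lower in C2 (all valid probes, 12.6%) and 1 was higher (all valid probes, 15.5%). Between C1 and NC1, 0 members were called lower (all valid probes, 0.0505%) and 0 higher (all valid probes, 0.00721%), with 5 of 90 at an unadjusted p under 0.05 (all valid probes, 9.84%). Both comparisons with C2 use the same 5 C2 arrays, which the fit counted as separate replicates. Over all valid probes C2 replicates 1 and 5 lay close to each other (SD of their log2 differences 0.444), as did replicates 3 and 4 (0.512). The other pairs of C2 arrays lay at 1.05 to 1.27. Why these replicates were close was not tested.

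Most fitted changes were small and lay on one side. The median log2 fold change of the members was -0.22 in C2 against C1, beside 0.02 over all valid probes, and 83 of 90 members lay below 0, beside 48.9% of all. In C2 against NC1 the median was -0.14 beside 0.11, with 75 of 90 below 0 beside 43.8%. The direction of this median turned with normexp, to 0.09 beside 0.16 over all valid probes, with 25 of 90 members below 0 beside 39.2%. With array weights 54 of 90 lay below 0 beside 41.0%. In C1 against NC1 it was 0.08 beside 0.05, with 19 of 90 below 0 beside 42.7%. Members on one array move together, so 90 signs are far from 90 separate observations. The median deviation of the members on C2 replicates 2 and 4 (-0.40 and 0.47) was larger in size than each of these medians.

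**Figure D2:**
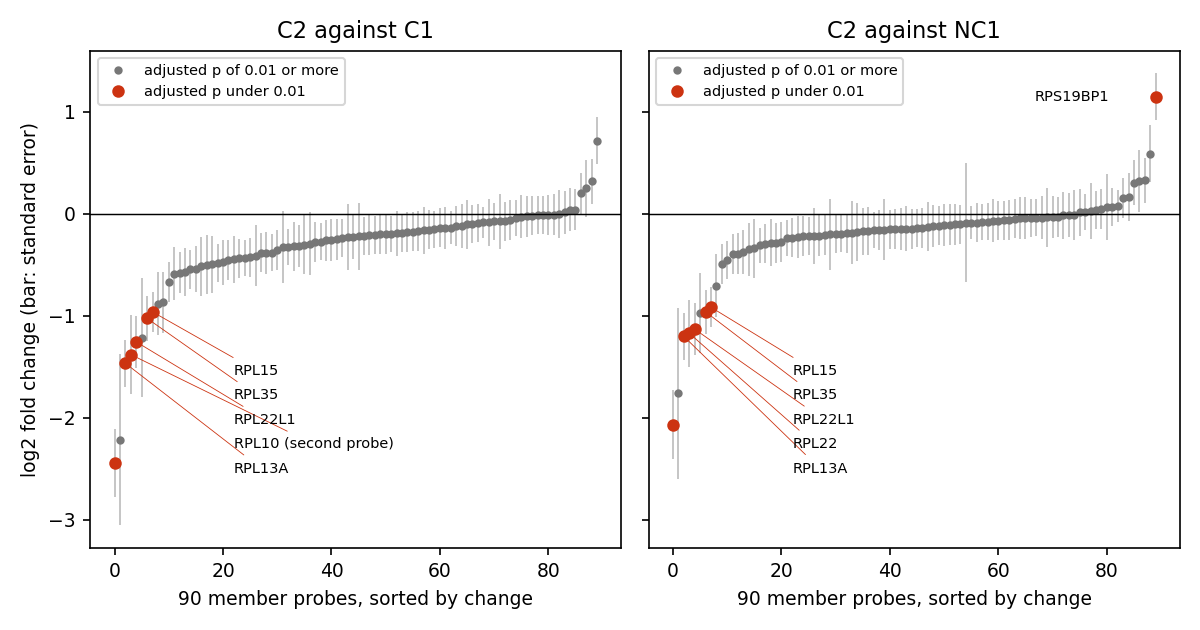
Log2 fold change of each of the 90 valid member probes with its standard error, sorted from lowest to highest, for C2 against C1 (left) and C2 against NC1 (right). Red points had an adjusted p under 0.01: 6 lower against C1, and 6 lower and 1 higher against NC1; 1 of the lower points in each panel carries no label.

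The counts of calls depended on how arrays were scaled, and so did their standing beside all valid probes. Against C1 the members' share called lower was under that of all valid probes at median scaling. It was over it with the 75th percentile and cyclic loess, and near it with quantile normalization. Against NC1 it stayed under with the 75th percentile and cyclic loess and was near with quantile normalization. The median-scaled fit called 6 members lower in C2 than in C1 (all valid probes, 12.8%). With the 75th percentile it was 23 (all valid probes, 18.1%), with quantile normalization 17 (all valid probes, 17.8%) and with cyclic loess 22 (all valid probes, 16.5%). Against NC1 the counts were 12 (all valid probes, 18%), 16 (all valid probes, 17.7%) and 14 (all valid probes, 17.4%). The 75th percentile moved the median change of all valid probes to -0.11 in C2 against C1 and that of the members to -0.35. Without C2 replicate 4, at median scaling, 16 members were lower than in C1 (all valid probes, 13%) and 8 lower than in NC1 (all valid probes, 12.2%). Without both C2 replicates 2 and 4 the counts were 11 (all valid probes, 12.4%) and 8 (all valid probes, 11.8%). With background correction by normexp they were 5 (all valid probes, 11.8%) and 2 (all valid probes, 8.65%). A test that allowed the stages unequal spreads called 0 members in any comparison. In C2 against C1 it called 5.81% of all valid probes lower and 5.48% higher, and in C2 against NC1 5.25% lower and 4.89% higher. At an unadjusted p under 0.05 it gave 13 members in C2 against C1 (all valid probes, 40%) and 8 in C2 against NC1 (all valid probes, 39.5%). All 6 members called at median scaling were also called under the 3 other scalings in C2 against C1. A further 10 probes were called under all 3 of those and not at median scaling, among them the first RPL10 probe, RPL10A, RPL23A, RPL26L1, RPL30, RPL39, RPS9, RPS15 and RPS19, a set named after its values were seen.

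**Figure D3:**
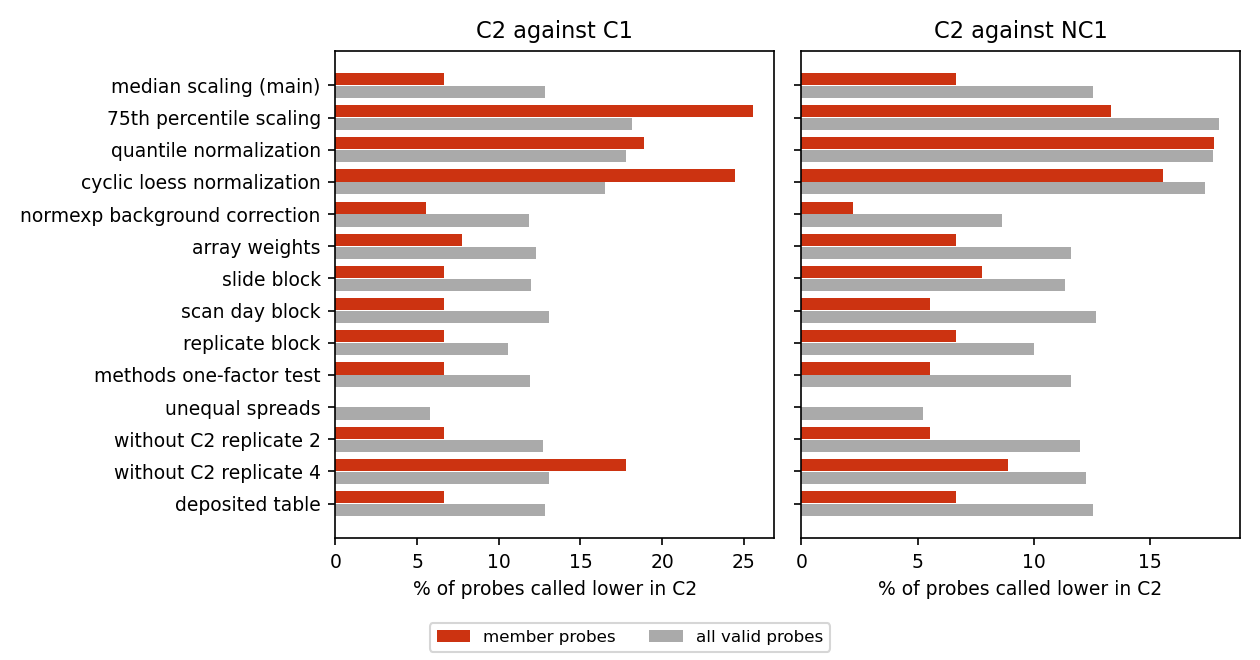
Percent of the 90 member probes (red) and of all valid probes (grey) called lower in C2, against C1 (left) and against NC1 (right), under median scaling and under each alternative. With median scaling 6 members were called in each comparison, and the 75th percentile, quantile and cyclic loess settings gave 17 to 23 against C1 and 12 to 16 against NC1.

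By subunit, 1 of 32 small subunit and 3 of 45 large subunit probes were called lower in C2 than in C1 (all valid probes, 12.8%). Their median changes were -0.22 and -0.24. Of these 77 probes 74 lay below 0, and the highest change was 0.04. The 20 subunit probes with mean signals under 8 had a median change of -0.46 with 3 called, and the 57 with signals of 8 or more had -0.20 with 1 called. The share of 12.8% over all valid probes stands beside both counts. This division was made after the values were seen and was not tested.

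RPL13A, a large subunit protein that can also leave the ribosome to silence inflammatory messengers, was 7.95 to 8.69 in NC1 (median 8.31), 8.27 to 8.94 in C1 (median 8.59), and 6.47, 7.14, 7.07, 7.95 and 6.78 in C2. The C2 arrays lay below the others, replicate 4 by a small margin. It fell by 1.47 ± 0.23 on the log2 scale against C1 (limma, adjusted p = 5.60e-05). Against NC1 the log2 fold change was -1.20 ± 0.23 (adjusted p = 0.000406). Within slides the difference from C1 ran from -2.47 to -0.32. With the C2 arrays all below the others, the exact two-sided permutation test over arrays could only give its smallest p for 5 against 6 arrays. This was 0.00433 in each comparison, or 0.0130 after adjustment over the 27 such tests run. These tests were run only on probes already called on the same arrays, so they add no separate support.

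RPL15, a large subunit protein that takes part in ribosomal RNA maturation, had a pair of valid probes. The first probe gave 6.81 to 7.68 in NC1 (median 7.10), 6.90 to 7.60 in C1 (median 7.13), and 6.48, 5.69, 6.06, 6.35 and 6.58 in C2. No C2 array reached the others. Its change was -0.96 ± 0.20 against C1 (limma, adjusted p = 0.000787) and -0.92 ± 0.20 against NC1 (adjusted p = 0.00124). The second probe gave 5.85 to 6.79 in NC1, 6.42 to 7.35 in C1, and 1.40, 6.31, 6.60, 7.15 and 1.60 in C2. Replicates 1 and 5 thus stood far below every other array at this probe and the other 3 C2 arrays stood near the range of C1. Its change from C1 was -2.22 ± 0.84, which was not called (adjusted p = 0.0414). The signals of both probes, across the 17 arrays, had a Pearson correlation of 0.27, and the mean of both probes differed by -1.59 between C2 and C1.

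RPL35, which lies near the exit of the tunnel for the new protein chain, was 5.52 to 6.40 in NC1 (median 6.19), 5.78 to 6.62 in C1 (median 6.10), and 4.90, 4.73, 5.36, 5.63 and 4.89 in C2. C2 lay below all C1 arrays and 4 of 5 C2 arrays below all NC1 arrays. The changes were -1.03 ± 0.22 against C1 (limma, adjusted p = 0.00102) and -0.96 ± 0.22 against NC1 (adjusted p = 0.00180). With normexp the call against NC1 was lost for RPL35 (-0.71, adjusted p = 0.0274) and for the first RPL15 probe (-0.69, adjusted p = 0.0135).

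RPL22L1 and RPL22 are paralogs that can take the same place in the large subunit, and in other cells RPL22 holds down the messenger of RPL22L1. RPL22L1 was 3.40 to 4.18 in NC1 (median 3.74), 3.36 to 4.80 in C1 (median 3.76), and 2.19, 2.20, 2.47, 3.45 and 2.76 in C2. The C2 arrays lay below all C1 arrays except for replicate 4. Its changes were -1.26 ± 0.26 against C1 (limma, adjusted p = 0.000720) and -1.13 ± 0.26 against NC1 (adjusted p = 0.00178), the latter lost with normexp (-0.85, adjusted p = 0.0295). RPL22 was 1.50 to 2.96 in NC1 (median 2.52), 0.72 to 2.40 in C1 (median 1.38), and 0.88, 1.23, 1.03, 2.09 and 0.79 in C2. C1 and C2 overlapped widely and 4 of 6 NC1 arrays stood above all of both. RPL22 was called in C2 against NC1 (-1.17 ± 0.33, limma, adjusted p = 0.00805) and not against C1 (-0.22 ± 0.33, adjusted p = 0.617) or for C1 against NC1 (-0.95, adjusted p = 0.233). Whether the paralogs differ from each other in their change was not tested.

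RPL10, which joins the large subunit at the last step of its assembly, had a first probe with signals of 9.79 to 10.62 in NC1, 9.84 to 10.32 in C1, and 9.45, 9.18, 9.51, 10.27 and 9.50 in C2. At this probe 4 of 5 C2 arrays lay below all C1 arrays and replicate 4 lay within them. Its change of -0.58 ± 0.20 against C1 was not called (limma, adjusted p = 0.0257). The second probe, named RPL10 from its description without a RefSeq match, gave -0.14 to 1.58 in NC1, 0.40 to 2.07 in C1, and -0.57, 0.51, -0.76, 1.19 and -0.82 in C2. Across the 17 arrays the signals of both probes had a Pearson correlation of 0.40. Whether the second probe reads the RPL10 messenger was not settled here. The second probe's change of -1.38 ± 0.39 against C1 was called (limma, adjusted p = 0.00830) and that of -0.97 ± 0.39 against NC1 was not (adjusted p = 0.0531). The call of the second probe was lost under 17 of the 33 alternatives, and that of RPL22 against NC1 under 18 of 33.

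RPS26, a small subunit protein near the channel where the messenger leaves, was the only member whose C1 arrays all lay above its NC1 arrays, where 0.887% of all valid probes did the same. For 0 members did all C1 arrays lie below (all valid probes, 1.21%). It was 5.06 to 6.64 in NC1 (median 6.18), 6.66 to 7.77 in C1 (median 7.07), and 6.55, 6.24, 6.29, 7.07 and 6.92 in C2. It differed among the 3 stages (limma F test, adjusted p = 0.00976), and C1 against NC1 alone, 1.08 higher, was not called (adjusted p = 0.0962).

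The single member that rose, RPS19BP1, is not a ribosomal protein but a nucleolar protein that binds RPS19 and activates the deacetylase SIRT1. It was 5.43 to 6.06 in NC1 (median 5.76), 5.75 to 6.67 in C1 (median 6.21), and 7.38, 6.07, 6.73, 7.13 and 7.26 in C2. C2 lay above all NC1 arrays. Its change was 1.15 ± 0.23 against NC1 (limma, adjusted p = 0.000616), and the change of 0.72 ± 0.23 against C1 was not called (adjusted p = 0.0179).

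**Figure D4:**
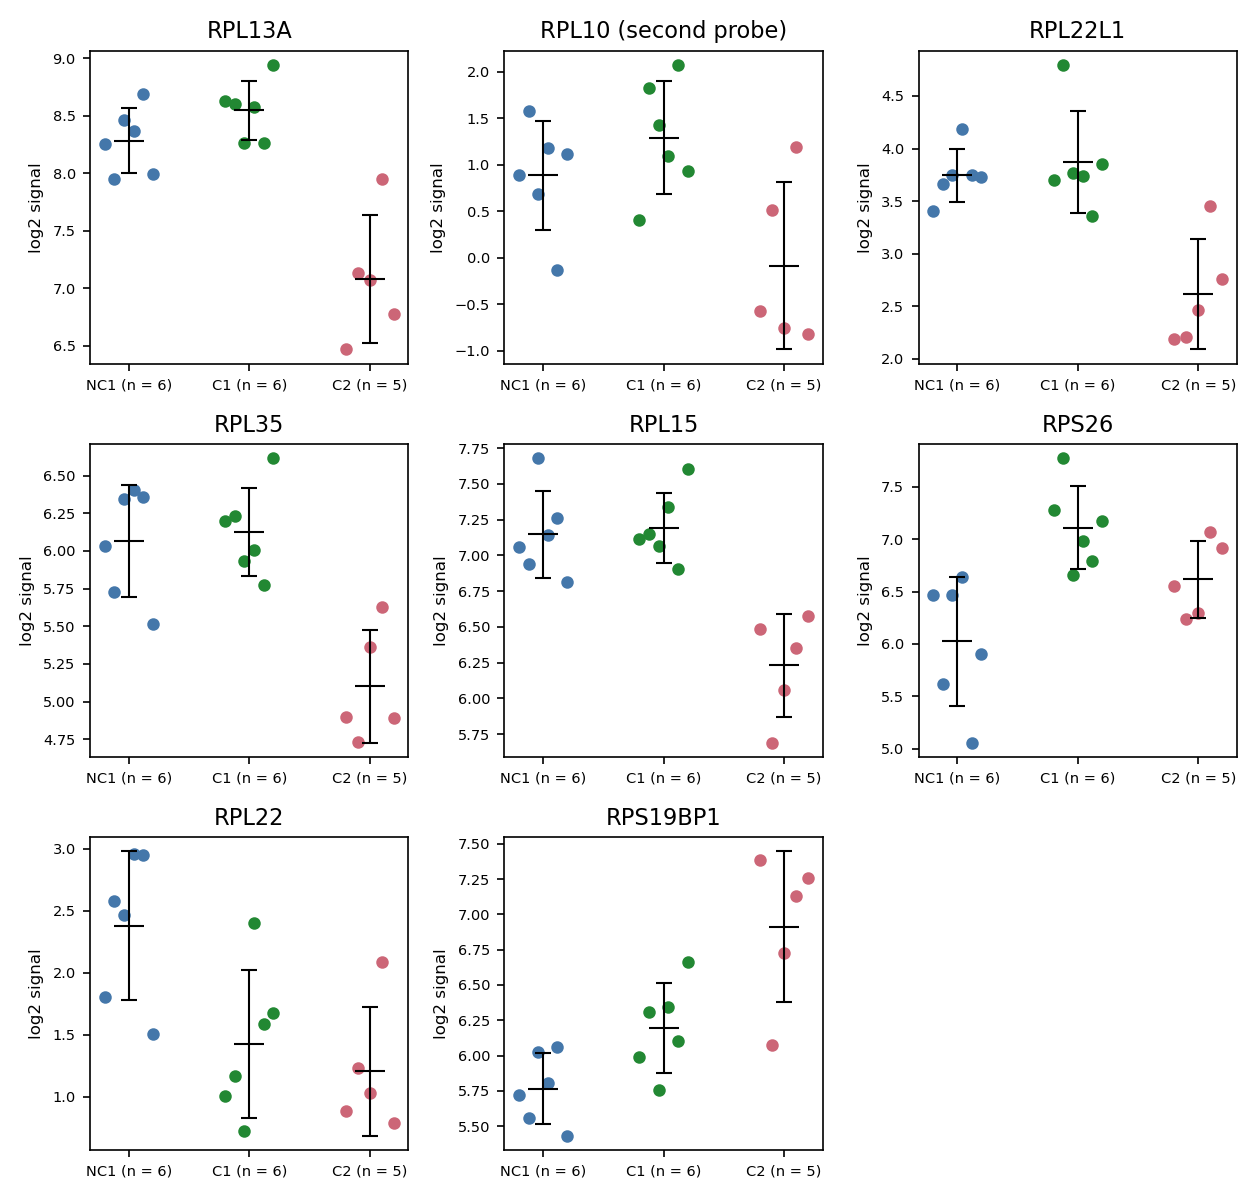
Log2 signal above the array median of 8 of the 9 member probes called in any test, 1 panel each; points are arrays, bars the mean and SD of a stage, and each panel has its own axis range. RPL13A and RPL15 show C2 arrays below all others, and RPS19BP1 shows them above all NC1 arrays.

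Non-overlapping arrays were as few as the calls made at median scaling. In C2 against C1, 4 members were lower on every C2 array (among them RPL13A, RPL15 and RPL35) where 11% of all valid probes were, and 0 were higher, where 10.7% were. In C2 against NC1, 3 were lower (all valid probes, 10.3%) and 1 higher (all valid probes, 10.6%).

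The members with the highest probe signals did not differ detectably between stages. These were RPS14, RPLP2, RPL7A, RPS20, RPS3, RPS10, RPS13, RPL24, RPLP0 and RPL8. RPLP0 and RPLP2 belong to the stalk that recruits elongation factors, RPS3 lines the small subunit's channel where the messenger enters, and RPS14 is lost in the 5q- form of myelodysplasia. Their changes in C2 against C1 ran from -0.26 for RPS20 to -0.02 for RPS10, and none was called in any comparison (smallest adjusted p against C1 0.320, limma). RPS14 was 10.75 to 11.79 in NC1, 10.79 to 11.52 in C1, and 11.02, 10.64, 11.01, 11.30 and 10.81 in C2, so that the stages overlapped on nearly their whole range.

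RPL19, which served as reference gene in the study's quantitative PCR of cow samples, was 9.30 to 10.14 in NC1 (median 9.51), 9.44 to 9.86 in C1 (median 9.78), and 9.43, 9.17, 9.70, 9.99 and 9.59 in C2. Its changes were -0.15 ± 0.18 against C1 (limma, adjusted p = 0.530) and -0.04 ± 0.18 against NC1 (adjusted p = 0.889). The sign of the second turned with background correction by normexp (0.21) and with array weights (0.03). It also turned without NC1 replicate 5 (0.07) or C2 replicate 2 (0.06). No setting called RPL19.

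At the other end of the signal range lay, among others, RPL28, RPS27A, RPS6KB1 and RPL22. RPL28 was -0.10 ± 0.23 (SD, n = 6) in NC1, 0.18 ± 0.26 (SD, n = 6) in C1 and -0.26 ± 0.24 (SD, n = 5) in C2. RPS27A, made as a fusion with ubiquitin, was 0.18 ± 0.28 (SD, n = 6) in NC1, 0.91 ± 0.58 (SD, n = 6) in C1 and 0.50 ± 0.66 (SD, n = 5) in C2. Neither was called in C2 against C1 (limma, adjusted p = 0.0519 and 0.297). RPS6KB1, the kinase of RPS6, changed by -0.08 ± 0.23 (adjusted p = 0.794). Where in its transcript each of these probes lies, and for RPL27 on which strand, was not settled here.

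Among the other paralogs, RPL7L1, RPL26L1, RPL36AL and RPS27L were valid and none was called. In C2 against C1 the log2 fold changes were 0.32 for RPL7L1, -0.59 for RPL26L1, 0.25 for RPL36AL and -0.23 for RPS27L. The limma adjusted p was 0.606 for RPS27L, a p53 target, and 0.0797 for RPL26L1.

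Single arrays of one stage differed in all ribosomal protein probes together. After subtracting each stage's mean, the median deviation of the members was 0.47 on C2 replicate 4, 0.42 on NC1 replicate 5, -0.40 on C2 replicate 2 and -0.31 on C1 replicate 3. Across the 17 arrays the deviations of 79 of 90 members correlated with this median deviation at r above 0.5 (median r 0.84), and so did those of 4974 of 13865 valid probes (median r 0.34). All points share the array's scaling and the members' median is made of the members, so this is a description. RPS3, RPL9 and RPL12 were among those that followed it most closely (r 0.98 for RPS3). RPL28, the second RPS29 probe, the second RPL10 probe and RPL27 ran against it, with r from -0.44 to -0.10. The bright end of each array moved too: the 99th percentile of all probes lay 9.03 above the median on C2 replicate 4 and 8.29 on C2 replicate 2. The part of this range in the members' values was not tested.

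**Figure D5:**
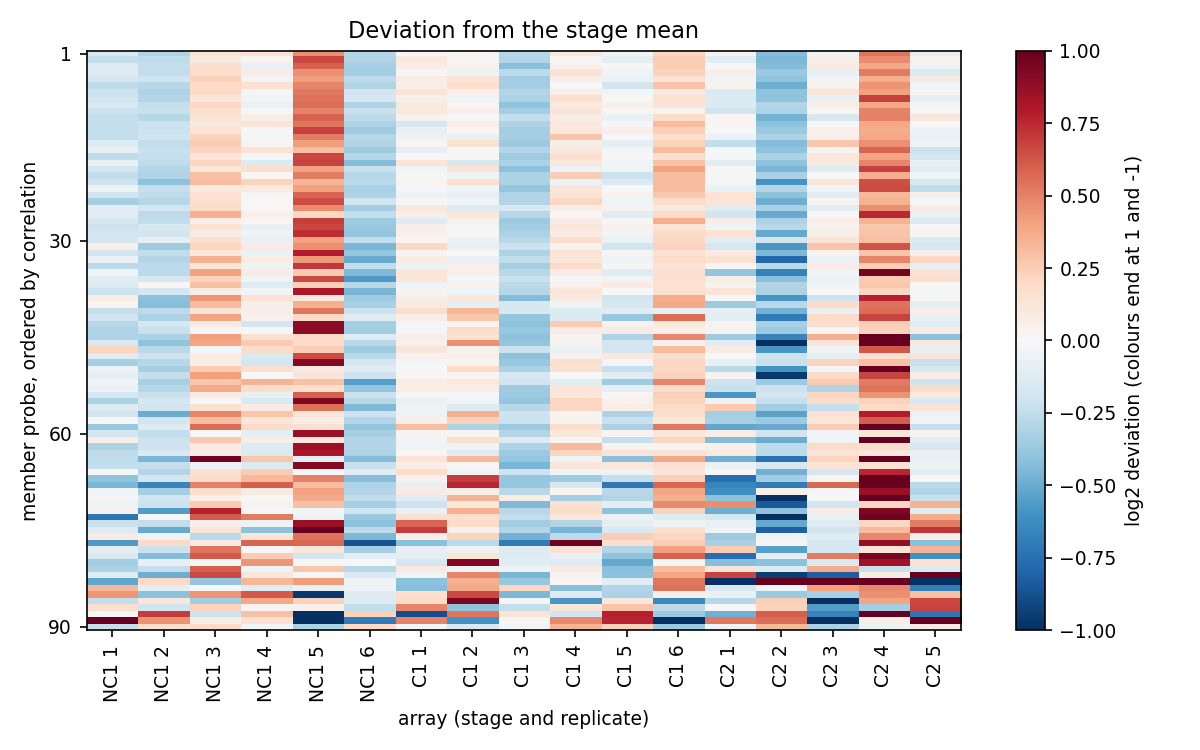
Deviation of each of the 90 valid member probes (rows, ordered by correlation with the members' median deviation) from its stage mean on each of the 17 arrays (columns), in log2 units. Most rows are red on NC1 replicate 5 and C2 replicate 4 and blue on C2 replicate 2 and C1 replicate 3.

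The wider translation genes were set beside the ribosomal proteins through lists, each gene by its brightest valid probe. Of 19 other TOP messengers, 4 fell and 1 rose in C2 against C1, with a median change of -0.45. RACK1 (GNB2L1 on the array), which sits on the small subunit, fell by 1.07 and VIM, the intermediate filament vimentin, by 1.06, while LGALS1, a galectin, rose by 1.89. Of 35 initiation factors and their regulators 6 rose and 1 fell (median 0.21). EIF2AK4, the kinase GCN2 that senses lack of amino acids, rose by 2.58, EIF4EBP1, the repressor of cap binding that mTOR phosphorylates, rose by 2.29, and EIF3E, an EIF3 subunit, fell by 0.95. Of 12 elongation and termination factors 2 rose and 0 fell (median -0.13): EEF2K, the kinase that inhibits elongation factor 2, by 1.43 and GSPT1, a release factor, by 0.92. The same background shares of 15.3% higher and 12.8% lower stand beside these counts.

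Of 55 nucleolar assembly factors 5 rose and 0 fell in C2 against C1 (median 0.18). RRP15 rose by 1.74 and UTP15, of the small subunit processome, by 1.11. Of 24 genes of RNA polymerases I and III 1 rose (POLR3F, 1.14) and 1 fell (TAF1A, -1.02). Of 32 mTOR, S6 kinase and TOP regulators 5 rose and 7 fell (median -0.19). MYC, which drives transcription of ribosome genes, fell by 4.78 and SESN2, an mTORC1 inhibitor, by 2.39. RPS6KA3, a kinase of the ERK pathway, rose by 2.00 and LARP4 by 0.98. Of 23 factors that meet the new chain or the ribosome 4 rose and 1 fell (median 0.51), among them SRP14, of the signal recognition particle, which rose by 1.52, and SSR3, of the translocon, which rose by 1.12. Of 3 fusions with ubiquitin or ubiquitin-like tags 0 rose and 0 fell (median -0.38), among them FAU with a change of -0.38 and RPS27A with -0.41. Over the 8 lists together 12 of 188 genes were lower in C2 than in C1 (all valid probes, 12.8%). The counts of the single lists add to more than these totals, so they cannot be read as counts of separate genes. With the 75th percentile 33 were lower (all valid probes, 18.1%).

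The mitochondrial ribosomal proteins, which the rule left out, were taken as a list after values were seen. Of 70 valid genes 6 rose and 2 fell in C2 against C1 (median 0.18), and 17 rose and 1 fell against NC1 (median 0.39). Of all valid probes 15.3% rose and 12.8% fell against C1, and 15.5% and 12.6% against NC1. MRPS14 rose by 1.30 and MRPS31 by 1.02 against C1, and MRPL10 fell by 0.97. The cytoplasmic members had medians of -0.22 and -0.14 in the same comparisons. The difference between the lists was not tested.

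Markers of the cell types in the sample also moved between stages. Of 12 markers of cumulus and granulosa cells 11 were above background on every array, and the log2 of their summed signal was 12.2 to 13.3 in NC1, 12.2 to 12.8 in C1 and 10.7 to 12.6 in C2. Of the 10 valid genes of this list 10 lay below 0 in C2 against C1 (median -1.82), and 6 were called lower (all valid probes, 12.8%). The study itself reported that several genes of this list, among them AMH and FSHR, fell in cumulus cells at C2. The fall of this list is thus no measure of how many cumulus cells a sample held. For cumulus expansion 6 genes were on the array, with sums of 1.89 to 5.81 in the immature stages and 9.08 to 10.6 in C2. Sums for 10 theca and stroma markers were 7.50 to 8.28 in NC1 and C1 and 8.36 to 9.24 in C2. Of the 9 valid genes of this list 6 lay below 0 in C2 against C1 (median -0.25), and the 2 that were called rose (LUM by 3.79 and COL1A1 by 1.15). For 8 endothelial markers they were 1.48 to 2.30 and 2.46 to 3.65, with CDH5 above background on no array. Of the 6 valid endothelial genes 4 lay below 0 against C1 (median -0.21) and 3 against NC1. Against C1 the single call was KDR, which rose by 3.58, and against NC1 KDR rose by 3.49 and TEK fell by 1.61. For 12 leukocyte markers the sums were 4.50 to 5.28 and 4.58 to 6.14, with CD3E above background on no NC1 or C1 array. Of the 9 valid leukocyte genes 0 lay below 0 in C2 against C1 (median 1.57), and 4 were called higher (all valid probes, 15.3%). For 4 red cell markers the sums lay between -0.97 and -0.35 on all arrays. Oocyte genes (7 on the array) had sums of 5.66 to 6.90 in NC1, 2.32 to 5.54 in C1 and 1.72 to 2.96 in C2, where BMP15, ZP2 and DAZL were above background on no array. Their part in the ribosomal protein values was not tested.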

How the data were processed

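Cy3-labelled cRNA of 17 cumulus cell samples was hybridised to 1-colour Agilent bovine arrays. The authors deposited scanner output with a processed signal intensity per spot (Agilent Feature Extraction 10.5.1.1) and a table of log2 values, which they had scaled to each array's median and filtered for detection; genome build and annotation are not given in the sources used here. Here the deposited log2 table served as an alternative, and its probe sequences were used. Log2 processed intensities were averaged over spots without outlier flags, scaled to the array median and tested with limma 3.58.1 in R 4.3.3 (1 fit over 3 stages, lmFit and eBayes, Benjamini-Hochberg adjustment over 13865 valid probes, threshold 0.01) and SciPy 1.17.1 for exact two-sided permutation tests. The fit was tested on simulated data in which every stage had the same spread. In the real data the median SD of all valid probes was 0.335 in NC1, 0.329 in C1 and 0.498 in C2. The simulation therefore cannot show how the calls stand under unequal spreads. The number of arrays limits the precision.

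Proteins were named from the array's descriptions; 63 of 92 accessions matched a RefSeq symbol (ARS-UCD2.0 table), the same in each case. Named genes were all called members, the 10 with the highest and the 5 with the lowest signal, RPL19, paralogs, and of each other list up to 2 genes with the largest rise and fall. Of several probes of a gene the brightest stood for it. Some items are counted but not reported here by name. Members and lists were chosen with earlier results of these data known. Alternatives were other scalings, background correction, filters, weights, blocks (slide, scan day, replicate number), other tests, the 2 stages alone, averaged close C2 replicates and each array left out.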

Additional observations from a re-analysis of the deposited data

Results flagged for a closer look

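Over 31 results, 93 groups of arrays were examined for 1 array standing apart, and 6 did; chance flags about 1 in 20 such groups. In NC1, replicate 5 stood above the others in the members' share of the summed signal (15.2%, others 11.3% to 12.7%), in RPS20 (11.24, others 10.42 to 10.72) and in RPLP0 (11.32, others 10.13 to 10.45). This array also had the lowest median signal before scaling, 64.2, where all other arrays had 103 to 208. The part of this in its member values was not tested. In C1, replicate 3 stood below the others in RPLP0 (10.11, others 10.43 to 10.52) and in RPL19 (9.44, others 9.70 to 9.86). RPL22L1 was higher on C1 replicate 2 (4.80, others 3.36 to 3.85).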

How the results depend on the processing

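The count of ribosomal protein probes that differed among the stages (7) became 20 with the 75th percentile, 17 with quantile normalization, 19 with cyclic loess and 0 with unequal spreads, and 6 to 15 when single arrays were left out. Lower probes in C2 against C1 (6) became 23, 17, 22 and 0 under the same settings, 11 without C2 replicates 2 and 4 together (chosen after seeing the data) and 5 to 16 with single arrays left out, 16 being without C2 replicate 4. Higher probes (0) became 1 under the 3 scalings, array weights and without C2 replicates 2 and 4, and 0 to 1 with single arrays left out. In C2 against NC1, lower probes (6) became 12, 16 and 14 under the scalings, 2 with normexp, 0 with unequal spreads and 5 to 8 with single arrays left out. The higher probe (1) became 0 with unequal spreads and stayed at 1 with each array left out. C1 against NC1 stayed at 0 both ways.

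The median change of the members was -0.35 to -0.13 (C2 against C1), -0.24 to -0.03 (C2 against NC1) and 0.02 to 0.19 (C1 against NC1) with single arrays left out. Normexp turned C2 against NC1 to 0.09 and moved C1 against NC1 from 0.08 to 0.40. The share difference between C2 and C1 (-2.50 points) was -1.49 after quantile normalization and -2.75 to -2.36 with single arrays left out. Over the other translation lists, lower genes in C2 against C1 rose from 12 to 33, 32 and 28 under the 3 scalings (all valid probes, 18.1%, 17.8% and 16.5%). Against NC1 they rose from 12 to 28, 33 and 28 (all valid probes, 18%, 17.7% and 17.4%). All 13 called single changes were lost with unequal spreads, 5 with normexp (RPL15, RPL22, RPL22L1 and RPL35 against NC1, the second RPL10 probe against C1), and none turned its sign; RPL19 in C2 against NC1 turned to 0.21 with normexp and 0.032 with array weights, and was -0.14 to 0.067 with single arrays left out. The cause was not tested. The mean over all valid probes of a gene was taken as a value with no test.

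With the replicate number as a block, 7 members differed among stages, 6 were lower in C2 than in C1, and 6 lower and 1 higher than in NC1. Same-numbered arrays come from different animals, and their deviations correlated from -0.32 to 0.25 over 16 pairs, so the numbers were not taken as pairs. At 5 to 6 arrays a stage, changes near the members' median stand within the spread between arrays.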
